A study of Mus musculus with 4 samples.

Results

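The early growth response (Egr) family and its corepressors were followed through sleep deprivation in mouse brain cortex. They were taken by symbol as Egr1, Egr2, Egr3, Egr4, Nab1 and Nab2, which gave 6 of the 39179 genes in the deposited tables. All 6 passed the filter of a mean of 50 normalised counts, which left 13550 genes to compare. The animals were mice deficient in the BK channel, a potassium channel that calcium and depolarisation open, and wildtype littermates, all on an F1 C57Bl6/J x Sv129 background. In each genotype some mice were kept awake by gentle handling for 4 h from light onset, while the others stayed undisturbed in their home cages, and all cortex was frozen at ZT4. RNA was sequenced as 4 libraries, each a pool of 4 animals: undisturbed wildtype mice (WT BL), sleep-deprived wildtype mice (WT SD), and undisturbed (KO BL) and sleep-deprived (KO SD) mice of the BK knockout. With 1 pool per group there was no replicate, and the age of the mice and the deleted part of the gene were not given in the sources used here.

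Egr1, Egr2, Egr3 and Egr4 are zinc-finger transcription factors made within minutes of synaptic activity, when MAP kinase signalling acts through serum response factor and its Elk partners, and CREB, on their promoters. They bind the same GC-rich element in target genes, many of which shape synapses. Nab1 and Nab2 bind a domain in Egr1, Egr2 and Egr3, which Egr4 lacks, and recruit the NuRD chromatin complex to repress the targets, and Nab2 is itself induced by Egr factors as a feedback brake.

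The promoters show which of these inputs can be read in the sequence itself, so 1 window is given for each gene that had one. RefSeq windows on GRCm38.p6, reaching from 250 bases before to 50 bases after a start, were held for 4 of the 6 genes. Capitals mark the CArG box bound by serum response factor, the TGACG core of a cyclic AMP response element and the Egr element GCGNGGGCG, each searched on both strands. The GC box GGGCGG was also searched but is not in capitals. The windows are chr10:67537619-67537918 (+) for Egr2, chr6:85513540-85513839 (-) for Egr4, chr1:52500399-52500698 (-) for Nab1 and chr10:127666654-127666953 (-) for Nab2.
Egr2: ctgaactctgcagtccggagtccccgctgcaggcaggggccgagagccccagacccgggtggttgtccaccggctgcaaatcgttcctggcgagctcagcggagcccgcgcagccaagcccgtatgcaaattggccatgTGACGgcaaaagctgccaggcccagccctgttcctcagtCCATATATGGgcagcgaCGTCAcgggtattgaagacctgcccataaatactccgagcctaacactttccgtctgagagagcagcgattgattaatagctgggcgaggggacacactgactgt
Egr4: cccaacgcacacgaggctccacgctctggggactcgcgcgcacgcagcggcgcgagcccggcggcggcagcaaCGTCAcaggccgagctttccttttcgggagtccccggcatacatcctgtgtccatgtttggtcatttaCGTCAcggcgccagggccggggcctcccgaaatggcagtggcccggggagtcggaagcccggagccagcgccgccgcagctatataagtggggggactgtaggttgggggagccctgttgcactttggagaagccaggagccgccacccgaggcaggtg
Nab1: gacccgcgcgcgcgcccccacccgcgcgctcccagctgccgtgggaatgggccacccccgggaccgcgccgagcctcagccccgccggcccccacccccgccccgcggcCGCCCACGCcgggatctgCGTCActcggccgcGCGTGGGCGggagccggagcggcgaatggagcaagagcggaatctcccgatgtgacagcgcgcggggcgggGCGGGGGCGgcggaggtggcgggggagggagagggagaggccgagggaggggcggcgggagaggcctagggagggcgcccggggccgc
Nab2: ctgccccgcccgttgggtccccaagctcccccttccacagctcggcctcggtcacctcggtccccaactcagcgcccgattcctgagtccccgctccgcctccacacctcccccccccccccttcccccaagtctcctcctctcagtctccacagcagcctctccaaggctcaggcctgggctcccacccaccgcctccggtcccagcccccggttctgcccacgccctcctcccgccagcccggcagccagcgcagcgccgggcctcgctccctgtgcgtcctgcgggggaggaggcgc

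RefSeq gave 5 windows for Egr2, and the 1 shown was chosen because it held both a CArG box and TGACG. The Egr2 window shown held 1 CArG box at position -72 and TGACG at -111 and -55, counted from a start at 0. A CArG box was present in 1.63% of 32851 promoter windows of the same length, and TGACG in 20.8%. Of the other Egr2 windows, 2 overlap this one and hold the same matches, the window at chr10:67537316-67537615 held 1 CArG box and no TGACG, and that at chr10:67535249-67535548 held neither. The Egr4 window held TGACG at -177 and -109 and no CArG box, and the Nab1 window held TGACG at -123 and no CArG box. Of these 4 windows, that of Nab1 held the Egr element, at -141, -109 and -38. At least 1 copy of it was found in 5.55% of windows, and at least 3 copies in 0.195%. The first Nab1 copy lies on the other strand, so the printed strand reads CGCCCACGC, and GC boxes overlapped all 3 copies. The Nab2 window held none of these motifs, only 1 GC box, which 35.7% of windows also held. It lies inside the deposited Nab2 gene model, which begins at 127668568 on the minus strand. The sequence around that start was not searched. These matches describe letters and no binding was measured.

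Levels were read as normalised counts, that is estimated counts scaled by the authors with a single factor for each library. Sequencing gave an estimated 27.7 M to 42.0 M reads per library, and a count of 3 reads corresponded to 2.63 to 3.76 normalised counts. Intervals in brackets are 95% intervals, exact for levels and folds and by a normal approximation for differences between folds, that cover counting error only, not differences between animals or pools. The threshold for calling a gene higher or lower was 1.5-fold. Folds between libraries followed GC content and transcript length, with rank correlations with GC content across genes of 0.33 in the wildtype pair, -0.71 in the knockout pair, 0.80 between baselines and -0.38 between sleep-deprived pools. Those with length were -0.49, 0.06, -0.22 and 0.51 in the same order, so length was the stronger trend in the comparisons that hold WT SD. A corrected value is one from which these trends were subtracted. WT SD stood apart from the rest, with Pearson correlations of 0.877 to 0.911 across genes, while the highest correlation among the others was 0.972. Kcnma1, the gene of the BK pore, was at 613.6 (WT BL) and 177.2 (WT SD) normalised counts in wildtype pools and at 447.2 (KO BL) and 490.9 (KO SD) in knockout pools, which did not separate the genotypes, so they are named as labelled. The order of the values was lower in the knockout at baseline and higher in the knockout after sleep deprivation.

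Markers of cortical neurons and glia were read in every library, and the 3 Schwann cell markers, which would point to nerve, all had means under 50. Summed excitatory neuron markers stood at 204500 (WT BL) and 115890 (WT SD) normalised counts in wildtype pools and at 233860 (KO BL) and 189720 (KO SD) in knockout pools, all 5 of 5 being expressed. Oligodendrocyte markers summed to 30680, 61834, 52493 and 56392 in the same order, so WT SD was lowest in the first list and highest in the second. Inhibitory neuron markers (6 of 6 expressed) summed to 30342, 42163, 29354 and 27104, and microglial markers (5 of 5) to 7461, 10044, 9195 and 8300, both highest in WT SD. KO SD, the library where Nab1 was highest, stood apart in other measures. Astrocyte markers summed to 36559, 28512, 29327 and 47915, and the 3 choroid plexus markers to 174.5, 87.1, 204 and 659.7, the last mostly Ttr, the transthyretin gene, at 580.7 in KO SD. The other choroid plexus markers were not highest in KO SD. Kl stood at 136.6, 54.43, 125.2 and 75.46, and Folr1 at 12.63, 8.887, 13.77 and 3.51. Of the astrocyte markers, Aqp4 and Slc1a3 were highest in KO SD, and Gfap and Aldh1l1 in WT SD. Mitochondrial transcripts made up 19.4% of normalised counts in KO SD and 12.7% to 13.5% in the other 3. The part of these shifts in the values below was not tested. In tissue RNA, fewer cells of a type and less RNA per cell cannot be told apart.

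Egr1 and Egr2 were highest in WT SD, Egr4 was 4.99-fold higher there than in WT BL, and Egr3 was 21.9-fold lower. Egr1 (chromosome 18, 34859823 to 34864984, plus strand, mm10), the family member most used as a marker of neuronal activity, stood at 9475 (WT BL) and 13420 (WT SD) normalised counts in wildtype pools and at 10570 (KO BL) and 11060 (KO SD) in knockout pools. WT SD was the highest library and the other 3 lay within a narrow range. The log2 fold of sleep deprivation was 0.50 (0.46 to 0.54) in wildtype pools and 0.07 (0.03 to 0.11) in knockout pools, neither reaching 1.5-fold. After the correction these were 0.73 and 0.50, so that the wildtype value then passed 1.5-fold.

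Egr2 (chromosome 10, 67535475 to 67542188, plus strand), also known as Krox20 and needed for hindbrain patterning and nerve myelination, stood at 302.5 (WT BL) and 682.4 (WT SD) normalised counts in wildtype pools and at 351.1 (KO BL) and 513.8 (KO SD) in knockout pools. Both sleep-deprived pools lay above both baseline pools, and the baseline intervals overlapped. Its log2 fold of sleep deprivation was 1.17 (0.96 to 1.38) in wildtype and 0.55 (0.34 to 0.76) in knockout pools. Corrected values were 0.96 and 0.91, which made Egr2 the only member at least 1.5-fold higher in both pairs after the correction, as were 3.25% of genes compared. None of the 6 members passed in both pairs on deposited values, where the share was 3.76%.

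Egr4 (chromosome 6, 85511122 to 85513542, minus strand) stood at 258.1 (WT BL) and 1289 (WT SD) normalised counts in wildtype pools and at 431.8 (KO BL) and 347.3 (KO SD) in knockout pools. WT SD was far above the other 3, which were within 1.67-fold of each other. The log2 fold was 2.32 (2.11 to 2.53) in wildtype pools and -0.31 (-0.53 to -0.10) in knockout pools. Egr4 has a GC content of 68.4%, higher than 99.9% of genes compared, and its corrected folds were 1.13 and 0.42. The trend subtracted was 1.19 in the wildtype pair and -0.73 in the knockout pair on the log2 scale.

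Egr3 (chromosome 14, 70077445 to 70080157, plus strand), which mice need to form muscle spindles, stood at 413.3 (WT BL) and 18.88 (WT SD) normalised counts in wildtype pools and at 696.1 (KO BL) and 801.1 (KO SD) in knockout pools. The WT SD value rests on an estimated 17 reads (11.002 to 30.2 normalised counts) and was 21.9-fold under WT BL, its nearest library. In the knockout pools the intervals of the levels overlapped. The log2 fold was -4.38 (-5.25 to -3.75) in wildtype pools and 0.20 (0.05 to 0.36) in knockout pools, and the corrected folds were -5.40 and 0.88. In WT SD, Egr3 thus lay in the opposite direction to Egr1, Egr2 and Egr4.

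WT SD was at least 8-fold under every other library for 123 genes, 0.908% of those compared, and 50 of these had a larger gap than Egr3. The 123 genes had a median GC content of 50.5% and a median width of 2301 bp, against 50.8% and 2015 bp over all genes compared. In the opposite direction, 11 genes were at least 8-fold above every other library in WT SD. The deposited Egr3 model has a width of 1416 bp, whereas the gene ends 2457 bp further downstream in GENCODE M21, where its exons cover 4406 bp. That exon length takes all exons together and is not the same measure as the deposited width. The widths of Nab1 (1294 against 4100 bp), Egr2 (1565 against 3398 bp) and Nab2 (1420 against 2941 bp) were also shorter, though their ends were the same in M21. What the shorter Egr3 model did to the Egr3 values was not tested.

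**Figure D1:**
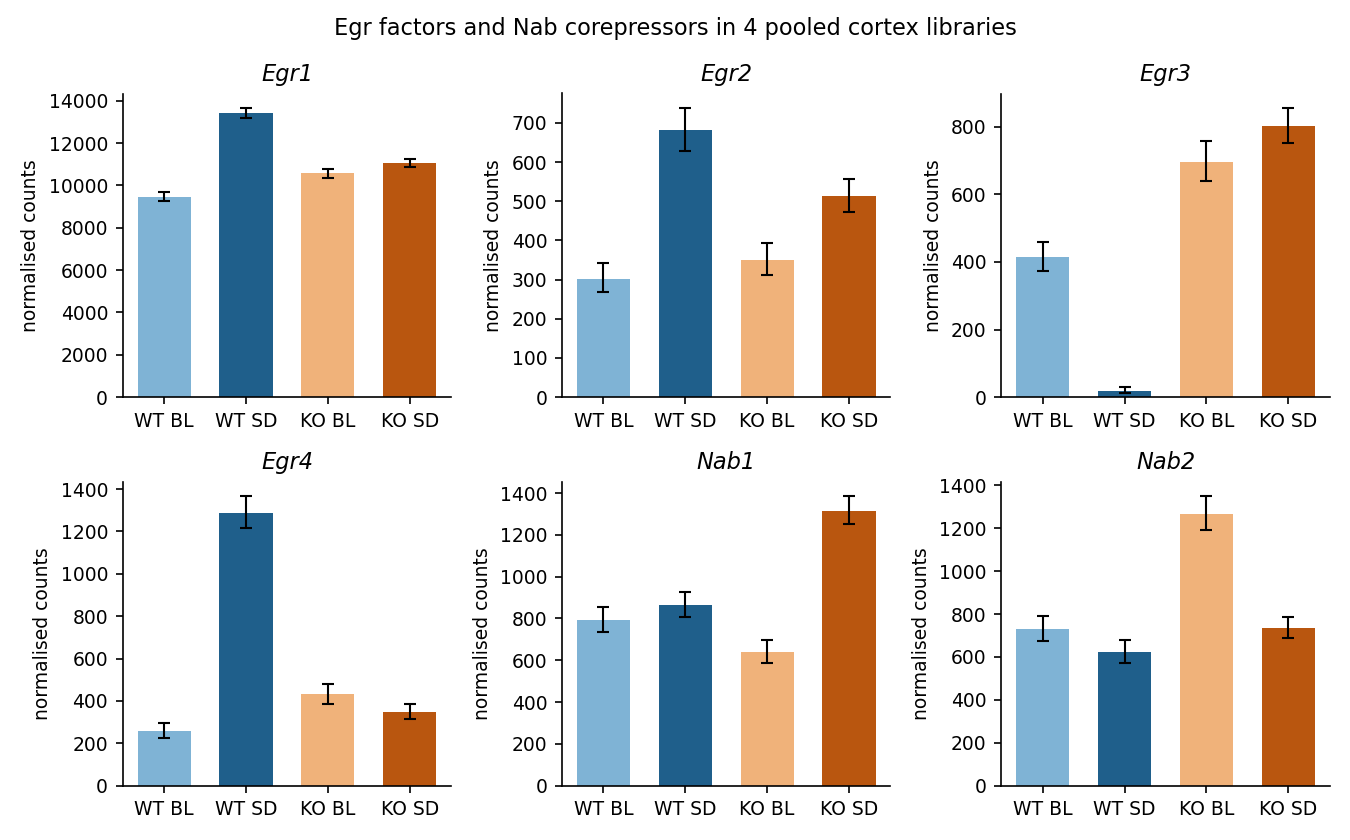
Normalised counts of each member in the 4 libraries, with 95% counting intervals and 1 value per library. Egr4 peaks in WT SD at 1289, and Egr3 is at 18.88 in that library and between 413.3 and 801.1 in the others.

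Nab1 (chromosome 1, 52457294 to 52500679, minus strand), the corepressor with broad expression, stood at 792.5 (WT BL) and 865 (WT SD) normalised counts in wildtype pools and at 641.1 (KO BL) and 1315 (KO SD) in knockout pools. The knockout sleep-deprived pool was highest and the wildtype intervals overlapped. Its log2 fold of sleep deprivation was 0.13 (-0.02 to 0.28) in wildtype pools and 1.04 (0.89 to 1.18) in knockout pools. The corrected folds were -0.07 and 1.19, and the latter was above 99.3% of genes compared. KO SD is also the library with the highest Ttr level, summed astrocyte markers and mitochondrial share, whose part in this value was not tested.

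Nab2 (chromosome 10, 127660918 to 127668568, minus strand), the inducible corepressor, stood at 731.3 (WT BL) and 624.7 (WT SD) normalised counts in wildtype pools and at 1267 (KO BL) and 736.5 (KO SD) in knockout pools. KO BL was the highest library, and the intervals of KO SD and WT BL overlapped, as did those of WT BL and WT SD. The log2 fold was -0.23 (-0.39 to -0.06) in wildtype and -0.78 (-0.92 to -0.65) in knockout pools. Corrected, it was -0.75 and -0.27, so the pair that passed 1.5-fold changed with the correction. Nab2 shares 1050 exon bases with Gm16229, 151 with Nemp1 and 40 with Stat6, all on the opposite strand, and the strand used in counting was not given in the sources used here. Stat6, which codes for a transcription factor of interleukin-4 signalling, stood at 407.5, 297.8, 663.4 and 484.5 normalised counts in WT BL, WT SD, KO BL and KO SD, with the same highest and lowest library as Nab2. So had Adssl1, Tpra1 and Lrfn3, the genes nearest to Nab2 in pattern, which share no exon bases with another gene. Values of Gm16229 and Nemp1 are not given here, and the part of the overlaps in the Nab2 values was not tested.

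**Figure D2:**
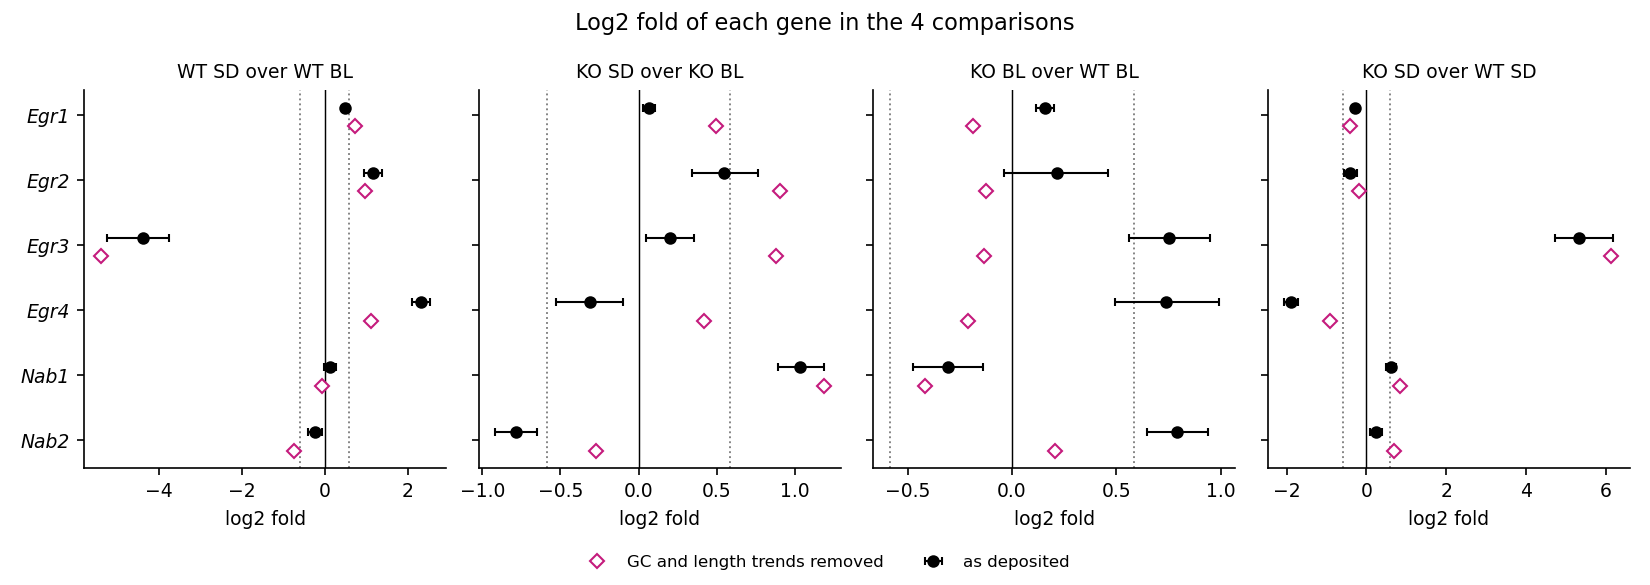
Log2 folds of each member in the 4 comparisons, deposited values with 95% counting intervals and corrected values beside them, with scales that differ between panels and dotted lines at 1.5-fold. Egr3 is at -4.38 in the wildtype pair and 5.33 between sleep-deprived pools, and the correction brings every baseline fold within 1.5-fold.

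In the wildtype pair 2 members were higher (Egr2 and Egr4) and 1 lower (Egr3), where 24.5% of all genes compared were higher and 24.1% lower. Corrected, Egr1, Egr2 and Egr4 were higher (18.5% of genes) and Egr3 and Nab2 lower (18.2%). The knockout pair had 1 member higher, Nab1, and 1 lower, Nab2, with 16.2% and 16.4% of genes. After the correction Egr2, Egr3 and Nab1 were higher, with a background of 7.79%, and none was lower, with a background of 5.34%. Above 0 in both pairs stood 2 of the 4 Egr genes on deposited values and 3 of 4 after the correction, where 22.2% and 31.4% of all genes were.

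Between genotypes at baseline, Egr3, Egr4 and Nab2 were higher in KO BL, with log2 folds of 0.75 (0.56 to 0.95), 0.74 (0.50 to 0.99) and 0.79 (0.65 to 0.94), where 16.5% of all genes were higher. No member was lower, and 10.7% of genes were. These 3 are also the members of highest GC content, at 62.2%, 68.4% and 57.3%. After the correction the folds were -0.13, -0.21 and 0.21, and 0 of 6 members passed 1.5-fold in either direction, with 6.66% of genes passing. At 2-fold no member passed between baselines, with 4.84% of genes passing, and 1 (Nab1) in the knockout pair, with 7.28%. The baseline genotype difference of Egr3 and Egr4 therefore changed sign when the trends were subtracted.

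After sleep deprivation Egr3 was higher in KO SD than in WT SD, at 5.33 (4.72 to 6.19), as was Nab1 at 0.60 (0.48 to 0.73), with 19.7% of all genes higher. Egr4 was lower at -1.89 (-2.06 to -1.73), with 21.1% of genes lower. Corrected values were 6.15 for Egr3, 0.84 for Nab1 and -0.92 for Egr4, and Nab2 passed 1.5-fold at 0.68, with 14.5% of genes higher and 12.7% lower. All of these rest on WT SD, and no other library can stand in for it in this comparison.

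**Figure D3:**
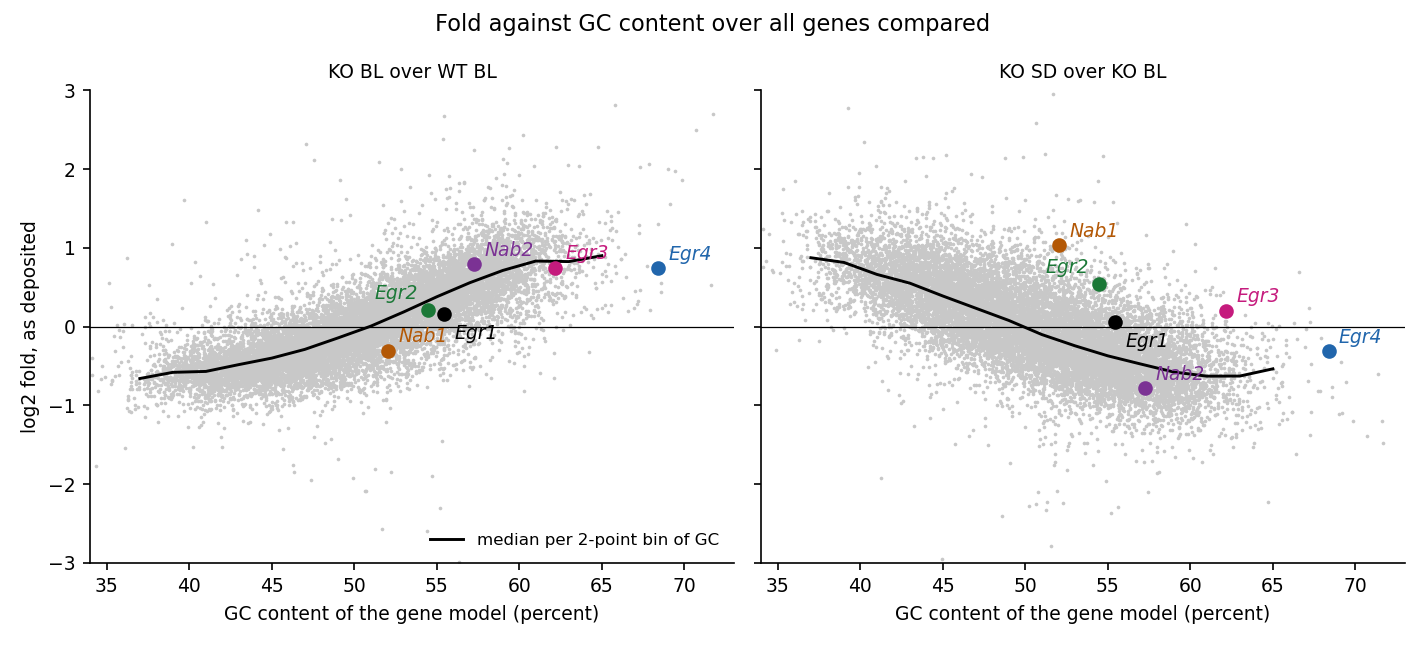
Log2 fold of each gene compared against its GC content, for KO BL over WT BL and for KO SD over KO BL, with members labelled and the line giving bin medians. Folds are higher at higher GC content in the first panel and lower in the second (rank correlations 0.80 and -0.71), and 29 and 25 of 13550 genes lie outside the axes.

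The response of the knockout pools minus that of the wildtype pools was 4.58 on the log2 scale for Egr3 (3.87 to 5.30) and -2.63 for Egr4 (-2.92 to -2.34). It was 0.91 for Nab1, -0.62 for Egr2, -0.55 for Nab2 and -0.44 for Egr1. A difference of at least 1 was found for 16.6% of all genes towards a higher knockout response and 19.2% towards a lower one. Corrected, Egr3 was at 6.28, Nab1 at 1.25, Egr4 at -0.71, Nab2 at 0.48, Egr1 at -0.24 and Egr2 at -0.06, so that Nab2 changed sign and Egr2 was close to 0, with 8.19% and 5.56% of genes past 1 in each direction. With 1 library per group, this difference has no test.

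**Figure D4:**
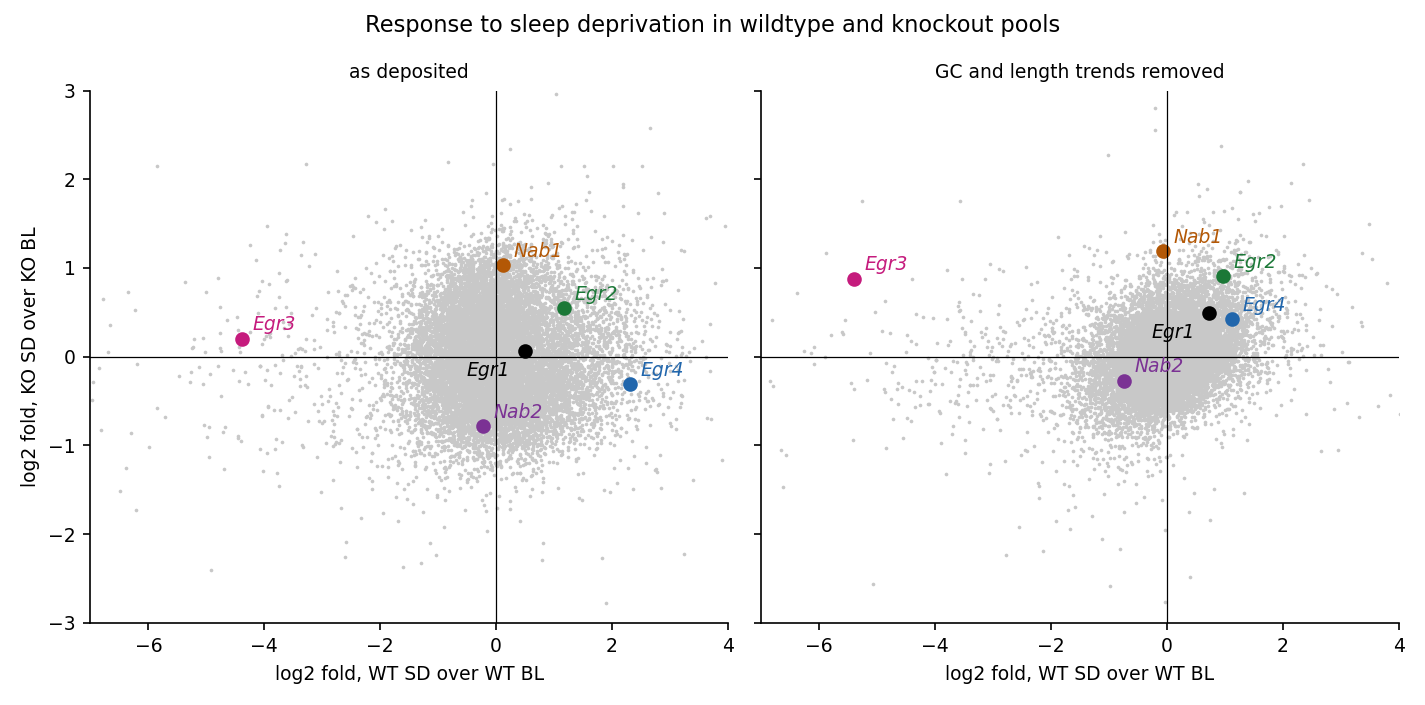
Log2 fold of sleep deprivation in knockout pools against that in wildtype pools for the 13550 genes compared (grey) and the 6 members (labelled), deposited values left and corrected values right. Egr3 lies far to the left in both panels, at -4.38 and -5.40 on the wildtype axis, and 46 and 48 genes lie outside the axes.

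An additive limma model over all 4 libraries, with sleep deprivation and genotype as terms and 1 residual degree of freedom, called 102 of 13550 genes, 0.753% (0.509% as lower), at a Benjamini-Hochberg adjusted p under 0.05. Egr3 was the only member called, with a log2 effect of -2.09 (SE 0.586, adjusted p = 0.0492). That effect is the mean of -4.38 and 0.20, so it was lower in 1 of 2 pairs and rests on WT SD: without WT SD or WT BL the value is 0.20. On deposited values the prior degrees of freedom of limma were infinite, so each SE and p comes from the variance trend across genes. They do not measure how far the 2 pairs of Egr3 lie apart. The call was lost under 5 of 6 other settings, the exception being equal total counts. In limma, the genotype term of Egr3 was 3.04 (adjusted p = 2.08e-04), from the same library, and on corrected values it was 3.01 (adjusted p = 0.9996), no longer called. Egr4 had a treatment effect of 1.0 (SE 0.545, limma adjusted p = 0.887) and Egr2 of 0.86 (SE 0.549, adjusted p = 0.9998). On corrected values limma called 3 genes, 0.0221%, and 0 members, with adjusted p of 0.393 for Egr2, 0.404 for Egr4, 0.421 for Egr1 and 0.499 for Egr3. At an unadjusted limma p under 0.05 there were 3 members (Egr2 at 0.00793, Egr4 at 0.0301 and Egr1 at 0.0391), as were 1581 of all genes, in a model fitted across all genes.

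Levels can be set side by side between genes only per length. Divided by deposited transcript width, Egr1 stood at 2520 (WT BL), 3569 (WT SD), 2811 (KO BL) and 2942 (KO SD) normalised counts per kb, above 89.8% to 91.1% of genes compared. It made up 80.6%, 77.2%, 75.4% and 73.6% of the summed level of the 4 Egr genes per kb in that order. The share of Egr4 was 3.86%, 13.0%, 5.42% and 4.06%, and that of Egr3 was 9.34%, 0.289%, 13.2% and 14.2%. Egr1 was the main family transcript in every library by either the deposited widths or the M21 exon lengths. The order of the others depended on the lengths: the second share was that of Egr3 in WT BL, KO BL and KO SD by deposited width, and that of Egr4 in WT BL (4.97%) and KO BL (7.13%) by M21 length. In WT SD it was Egr4 by both. The ratio of Nab1 to Nab2 per kb was 1.19 (WT BL), 1.52 (WT SD), 0.555 (KO BL) and 1.96 (KO SD), lowest in KO BL and highest in KO SD. By M21 exon length the same ratios were 0.777, 0.993, 0.363 and 1.28, so the order of the libraries is the same but Nab1 exceeded Nab2 in KO SD alone. Summed Egr over summed Nab levels per kb was 2.77, 4.17, 2.69 and 2.60, highest in WT SD.

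**Figure D5:**
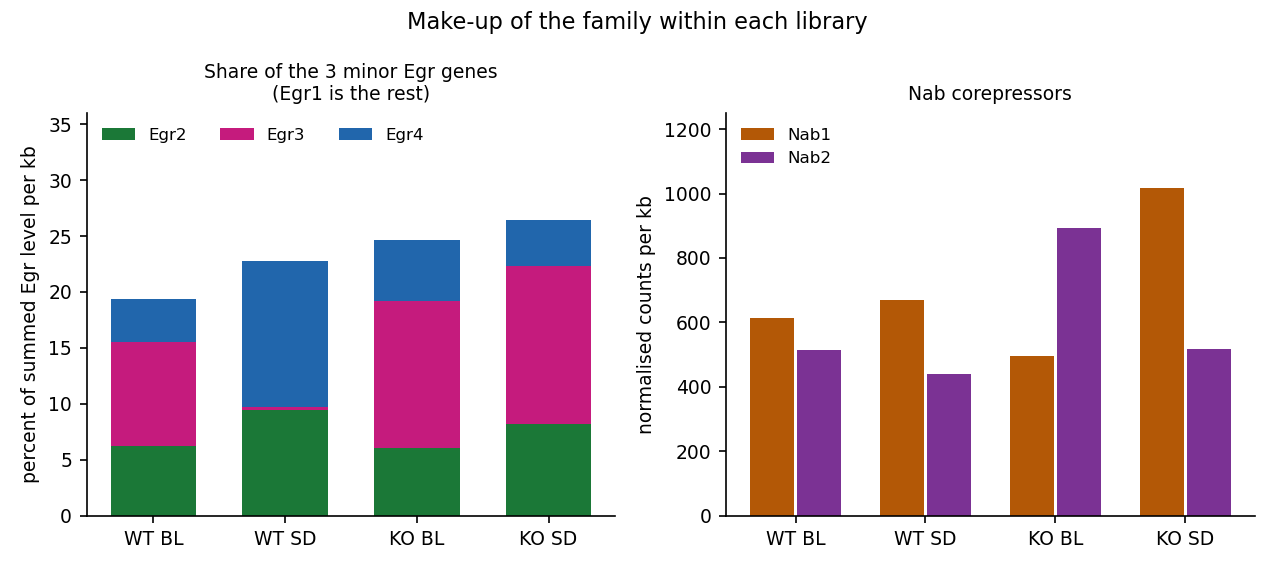
Left, the shares of Egr2, Egr3 and Egr4 in the summed Egr level per kb in each library (stacked bars, percent), with Egr1 as the remainder; right, normalised counts of Nab1 and Nab2 per kb of deposited width. The share of Egr3 is 0.289% in WT SD, where that of Egr4 is 13.0%, and Nab2 is above Nab1 in KO BL by these widths.

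Genes that Egr proteins are known to act on showed no single direction, and the counts of this and the following lists can be read against the shares of all genes given above for the same pairs. Of a list of 15, 14 were compared: 3 were higher and 4 lower in the wildtype pair (median -0.29, against -0.04 for all genes), and 5 higher and 3 lower in the knockout pair (median -0.21). Arc, a synaptic protein of activity-dependent receptor trafficking, stood at 4207 (WT BL) and 11010 (WT SD) normalised counts in wildtype pools and at 7348 (KO BL) and 14370 (KO SD) in knockout pools, the only target higher in both pairs on deposited values (1.39 and 0.97). On corrected values Cd44, a hyaluronan receptor, passed in both too (0.85 and 0.89). Htr2a, the serotonin 2A receptor, whose induction by sleep deprivation in mouse cortex has been reported to need Egr3, stood at 180.2, 3.399, 96.96 and 173.9 normalised counts in the same order. Its WT SD value is at about the level of 3 reads, and Htr2a is itself among the 123 genes at least 8-fold under every other library in WT SD, so no link to Egr3 can be read from it. In the knockout pools its log2 fold was 0.84, and 0.63 corrected. Ache, which codes for acetylcholinesterase, was lower in both pairs at -0.60 and -1.34. Gadd45b, a stress-response gene, was higher in the wildtype pair at 0.90 and -0.55 in the knockout pair. Psen2, a presenilin of the gamma-secretase complex, was at 0.69 and -0.79. Neither passed 1.5-fold in either pair after the correction, where Gadd45b was at 0.32 and -0.08 and Psen2 at 0.28 and -0.41. After the correction 2 targets were higher and 4 lower in the wildtype pair, and 4 higher and 1 lower in the knockout pair.

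Upstream of the family, Srf, the factor that binds CArG boxes, was at 1262 (WT BL) and 2033 (WT SD) normalised counts in wildtype pools and at 1904 (KO BL) and 1833 (KO SD) in knockout pools. Of the 18 genes of serum response factor and MAP kinase input, 3 were higher and 7 lower in the wildtype pair and 3 and 3 in the knockout pair. Map2k2, a kinase that activates ERK, was at 1.77 and Elk1, a partner of serum response factor, at -2.09 in the wildtype pair. Elk1 was lower in the knockout pair too, at -0.92. The other Elk partners listed did not share this direction. Elk4 was higher in both pairs, at 1.11 and 0.59 (1.03 and 0.62 corrected), and Elk3 was at 0.04 and 0.60. Corrected, 3 of the list were higher and 5 lower in the wildtype pair, and 2 and 1 in the knockout pair. Of 10 calcineurin and NFAT genes compared, the pathway that drives Egr2 and Egr3 in lymphocytes, 0 were higher and 4 lower in the wildtype pair and 1 higher and 0 lower in the knockout pair. The lower genes included Ppp3r1, the regulatory subunit of calcineurin, at -1.41. Corrected, 0 were higher and 2 lower in the wildtype pair, and 2 and 0 in the knockout pair.

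Among 14 genes of the NuRD complex, through which Nab proteins repress, 2 were higher and 2 lower in the wildtype pair and 0 and 3 in the knockout pair. After the correction the counts were 2 and 3 in the wildtype pair and 0 and 0 in the knockout pair. Mbd3, a core subunit, was at 2.08 and Gatad2b, which links the methyl-binding and remodelling subunits of the complex, at -3.93 in the wildtype pair. Gatad2b stood at 166.4 (WT BL) and 9.997 (WT SD) normalised counts in wildtype pools and at 165.3 (KO BL) and 112.4 (KO SD) in knockout pools, again lowest in WT SD. Like Htr2a, it is among the 123 genes at least 8-fold under every other library in WT SD. Among 7 factors that bind GC boxes, 0 were higher and 3 lower in the wildtype pair, and 4 higher and 0 lower in the knockout pair. These became 1 and 3, and 2 and 0, with the correction. Klf9, a glucocorticoid-responsive repressor, was at -1.94 in the wildtype pair and 0.34 in the knockout pair, and at -1.57 and 0.59 corrected.

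Of 14 other early transcription factors compared, 12 were higher and none lower in the wildtype pair (median 1.54), and 4 were higher and 1 lower in the knockout pair (median 0.21), a difference that was not tested. The corrected counts were 11 with none lower (median 1.22) and 7 with 1 lower (median 0.62). Nr4a2 and Nr4a3, orphan nuclear receptors, were higher in both pairs, at 2.01 and 2.15 and at 1.86 and 1.58. Junb, an AP-1 subunit, was higher in the wildtype pair at 2.09 and lower in the knockout pair at -1.42, and Jund was at 2.16 and -0.35. Corrected, Junb was at 1.28 and -0.72 and Jund at 1.64 and 0.30, so Jund changed sign in the knockout pair. Of 4 compared myelin genes that Egr2 drives in nerve, 1 was higher in the wildtype pair (Mbp, at 1.08) and 1 lower in the knockout pair (Mag, at -0.84). Corrected, Mbp was higher (1.01) and Pmp22, a nerve myelin protein, lower (-0.79) in the wildtype pair, and none passed in the knockout pair, where Mag was at -0.29.

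Genes with the pattern nearest to each member over the 4 libraries, by the smallest Euclidean distance of centred log2 values, were sought, with 3 genes per member. Egr1 was nearest to Eif3h, Surf1 and Samhd1 (distances 0.019 to 0.048) and Egr2 to Lsm1, Jam3 and Dhrs3. Egr4 was nearest to Gadd45gip1, Ccdc12 and Fam173a (0.023 to 0.119), with the lead gene at 401.1 (WT BL) and 1990 (WT SD) normalised counts in wildtype pools and at 674.1 (KO BL) and 548.4 (KO SD) in knockout pools. Egr3 had no close match: Cuedc1 and Usp29, among its nearest genes, were at 0.605 and 0.722. Nab1 was nearest to Tia1, Mgat4c and Csgalnact2, and Nab2 to Adssl1, Tpra1 and Lrfn3. Surf1, Jam3, Usp29, Gadd45gip1, Fam173a and Tia1 share exon bases with another gene. On corrected values 1 of the 18 pairs recurred, Egr3 with Cuedc1.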

How the data were processed

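RNA was measured in 4 cortex libraries, 1 per group, each a pool of 4 animals per the labels. The signal values that the authors deposited are estimated counts divided by 1 factor per library, per the file headers and values. The submitters' processing notes name RSEM 1.2.19 and edgeR, while the aligner and annotation release are not stated there. The log2 ratios and p-values that the authors deposited for each comparison were not used for results, and the GC fraction and width of each gene are those the authors deposited.

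The design provided for count models or, for normalised values, limma. The values are not whole, so limma 3.58.1 (R 4.3.3, trend variance, Benjamini-Hochberg adjustment over 13550 genes) was run on log2(value + 1). Genes needed a mean of at least 50. Reads were estimated from the value of 1 read in each library, 0.878 to 1.25 normalised counts, which gave exact binomial and Poisson intervals. For the correction, the deviation of a library from the 4-library mean was fitted by loess (span 0.3, degree 2) on GC and log10 width. The procedure was also run on simulated data. The trends put into those data were the ones the same loess had fitted here, so that run cannot show whether the correction is right. The prior degrees of freedom of limma were infinite on deposited values and 6.28 on corrected ones.

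The members and gene lists were chosen with earlier results of these data known. Named genes are all members, their 3 nearest genes, Kcnma1, all Egr targets where needed and up to 4 genes per list with the largest folds. Srf, Elk3, Elk4, Stat6, some cell type markers and genes named for how the correction moved them were added later, once seen. Some genes that this rule takes are not reported here. Coordinates (mm10) are 1-based, and overlaps come from GENCODE M21. Alternatives were another pseudocount, threshold, scaling, filter, variance prior and the correction, and leaving out each library.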

Additional observations from a re-analysis of the deposited data

Results flagged for a closer look

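The response of Egr3 to sleep deprivation differed between the genotypes by 4.58 on the log2 scale, knockout minus wildtype, since Egr3 was lower in the wildtype sleep-deprived pool than in the wildtype baseline pool and slightly higher in the knockout sleep-deprived pool than in its baseline. Egr4 differed by -2.63 in the other sense, higher in the wildtype pair and lower in the knockout pair. Both stand out because the single libraries of the genotypes moved in opposite directions. Neither difference was tested, as each group had 1 library. After the correction the Egr4 folds were 1.13 and 0.42, no longer opposite, whereas those of Egr3 were -5.40 and 0.88.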

How the results depend on the processing

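No paired analysis was possible because each group had 1 library and the labels give no shared replicate numbers. Of 24 member folds, 18 kept their sign when the GC and length trends were subtracted, and 7 of the 11 past 1.5-fold stayed past it. Scaling to equal total counts kept 22 signs and all 11, the exceptions being Nab1 in the wildtype pair (-0.04) and Egr1 in the knockout pair (-0.02). Median-of-ratios scaling, a pseudocount of 10 and no filter kept all 24 and all 11.

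With the trends subtracted, 5 members passed 1.5-fold in the wildtype pair in place of 3, and 0 in place of 3 between baselines, where Egr3 and Egr4 turned to -0.13 and -0.21. At 2-fold, 1 member passed in the knockout pair in place of 2, and 0 between baselines in place of 3. The additive model called 0 members in place of 1 with a pseudocount of 10, the trends subtracted, median-of-ratios scaling, no filter or a single prior variance, with limma adjusted p for Egr3 of 0.133, 0.499, 0.0600, 0.0616 and 0.0788. Equal total counts gave 0.0262. Leaving out each library in turn gave an Egr3 effect of -4.38 to 0.20 and an Egr4 effect of -0.31 to 2.32. Both changed sign between these, since without either wildtype library the value is that of the knockout pair. The cause was not tested.

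Scaling to equal total counts moved the median fold of all genes from -0.04 to -0.20 in the wildtype pair, and the share of calls that were higher from 50.5% to 38.5% there and from 49.6% to 37.8% in the knockout pair. With M21 exon lengths, chosen after the values were seen, Egr1 held 87.5%, 78.8%, 83.6% and 83.3% of the summed Egr level in WT BL, WT SD, KO BL and KO SD. The 17 reads of Egr3 in WT SD set the width of its interval.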
